A study of Mus musculus with 9 samples.

Results

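The aminoacyl-tRNA synthetases were followed here as a family of 36 genes, named by symbol among the 54532 genes of the table, and all 36 were found. The family was divided into 20 cytosolic enzymes and 16 mitochondrial enzymes, the latter carrying the suffix 2 in their symbols. Membership was set by gene name and not by any measured value.

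Messenger RNA was measured by RNA sequencing of primary mouse hepatocytes, liver cells isolated by perfusion, in 9 libraries that formed 3 groups of 3. All mice were C57BL/6 and, per the series' design text, male and homozygous for a floxed Ptgs2, the gene of COX-2, so the WT animals were Cre-negative littermates of COX-2fl/fl genotype. WT DMSO cells received the vehicle for 24 hours, WT Tu cells 6 μmol/L tunicamycin for 24 hours, and CKO Tu cells, which carried Alb-Cre and so a deletion directed to albumin-expressing cells, received the same tunicamycin. In every group the cells were first kept for 2 hours in 1% serum; no knockout cells with vehicle were analysed here, so the CKO genotype was compared only under tunicamycin. Tunicamycin blocks N-glycosylation and loads the endoplasmic reticulum with unfolded protein.

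Each synthetase joins 1 amino acid to its tRNAs and so supplies the ribosome with charged tRNA. Cytosolic and mitochondrial translation use separate charging systems, and mitochondrial synthetases are encoded in the nucleus and imported. The genes Kars and Gars encode both the cytosolic and the mitochondrial form, and mitochondrial glutaminyl-tRNA is made by an amidotransferase in place of a synthetase. In the cytosol several synthetases sit together in the multisynthetase complex, held by the scaffold proteins Aimp1, Aimp2 and Eef1e1. The kinase PERK, one of the sensors of unfolded protein, raises translation of the transcription factor ATF4, and many genes of amino acid supply, cytosolic synthetases among them, are known ATF4 targets.

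The core of the amino acid response element, at which ATF4 binds with C/EBP partners, was searched for as TGATGNAA on both strands of RefSeq promoter windows (GRCm38.p6, 250 bases before to 50 after each start). The table held windows for 27 members, 13 cytosolic and 14 mitochondrial. The core was present in 5 of the 13 cytosolic windows (38.5%) and in 0 of 15 windows of the 14 mitochondrial genes (a gene with several starts has several windows), against 3.97% of all 32851 windows in the table and 2.34% of the windows of genes tested. Gars, Iars, Tars and Yars were among the genes that held it. Their 4 places are printed to show the letters around the core, 5′ to 3′ on the strand that reads TGATGNAA, with the core in capitals.

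Yars, chr4:129189895-129189924, plus strand: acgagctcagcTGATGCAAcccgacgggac
Gars, chr6:55037960-55037989, minus strand: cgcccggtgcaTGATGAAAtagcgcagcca
Iars, chr13:49682126-49682155, minus strand: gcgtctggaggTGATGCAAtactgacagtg
Tars, chr15:11399655-11399684, plus strand: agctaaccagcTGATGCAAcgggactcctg

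In Yars, Iars and Tars the core reads TGATGCAA and in Gars TGATGAAA. The middle of the core lay between -26 and 11 bases from the start in all 4 places. A match is a description of letters and not a measured binding site. Neither TGACGTGG, the unfolded protein response element, nor the ER stress response element was found in the members' windows. These were rare over the table too, at 0.676% and 0.119% of all windows.

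Libraries held 14897358 to 16001484 fragments, and values are FPKM, fragments scaled to gene length and library size. Ptgs2 was barely detected in any library, with 0, 13 and 8 fragments in the vehicle libraries, then 8, 5 and 5 with tunicamycin and 1, 1 and 2 in the CKO Tu libraries, too few to check the deletion. Xist had 20659 to 33657 fragments in the WT libraries and 0 to 3 in the CKO libraries, while 4 Y-linked genes had 0 fragments in every WT library and 371 to 1996 in the CKO libraries. The labels give all animals as male, so the WT libraries went against them, and sex-linked expression and genotype cannot be told apart in any comparison of CKO Tu with WT. Hepatocyte markers dominated all libraries. The 9 markers summed to 16544 to 18383 FPKM in WT DMSO, 16445 to 17941 in WT Tu and 14585 to 15520 in CKO Tu. The CKO Tu sums lay below those of every WT library, while 6 of the 9 markers passed as higher and 2 as lower in CKO Tu against WT Tu. In the order vehicle, WT Tu and CKO Tu, endothelial markers summed to 11.4 to 12.1, 4.91 to 6.07 and 3.60 to 4.16 FPKM, Kupffer cell markers to 75.3 to 92.8, 96.9 to 115 and 92.7 to 107, and cholangiocyte markers to 24.5 to 27.6, 23.8 to 25.4 and 35.6 to 39.5. Stellate cell markers summed to at most 7.25 FPKM. Lymphocyte or neutrophil markers summed to 1.47 to 1.80, 4.88 to 6.52 and 3.03 to 4.58 FPKM in the same order of groups. Of the 10 Kupffer cell markers, 1 had 0 fragments throughout WT DMSO, 2 throughout WT Tu and 6 throughout CKO Tu, Adgre1 and Clec4f among these. The part of these shifts in the results was not tested, and in bulk RNA fewer cells of a type and less RNA per cell cannot be told apart. On the second principal component WT Tu replicate 1 stood away from its 2 fellow replicates, with 6.87% of fragments from mitochondrial genes against 5.25% and 5.90%. Calls that turn on it are given beside the results.

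The cytosolic enzymes were expressed well above the mitochondrial ones. Mean FPKM over the 9 libraries ran from 16.9 to 339 for the 20 cytosolic genes and from 1.34 to 19.1 for the 16 mitochondrial genes, so that the lowest cytosolic gene lay just below the highest mitochondrial genes. Nars, which charges asparagine tRNA, was by far the most abundant. It alone held 25.5%, 27.0% and 25.4% of the summed cytosolic FPKM of the vehicle, WT Tu and CKO Tu libraries. FPKM depends on the gene length used, which for Nars was 2632 bases, against 4355 exonic bases in GENCODE M21. The lengths of Hars and Lars were also shorter than in GENCODE M21. Gars (glycine), Rars (arginine) and Sars (serine) came next in WT DMSO, with means of 125 ± 1.88, 112 ± 0.414 and 102 ± 4.55 FPKM (SD, n = 3). Their ranges in that group did not overlap. Farsa, the alpha subunit of the phenylalanine enzyme, was the lowest at 16.1 ± 0.668 FPKM, and its partner Farsb stood at 35.9 ± 2.00. Among the mitochondrial genes Yars2 (tyrosine), Lars2 (leucine) and Iars2 (isoleucine) led in WT DMSO with 21.0 ± 2.60, 19.3 ± 1.01 and 12.9 ± 0.256 FPKM. The ranges of Yars2 and Lars2 overlapped.

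**Figure D1:**
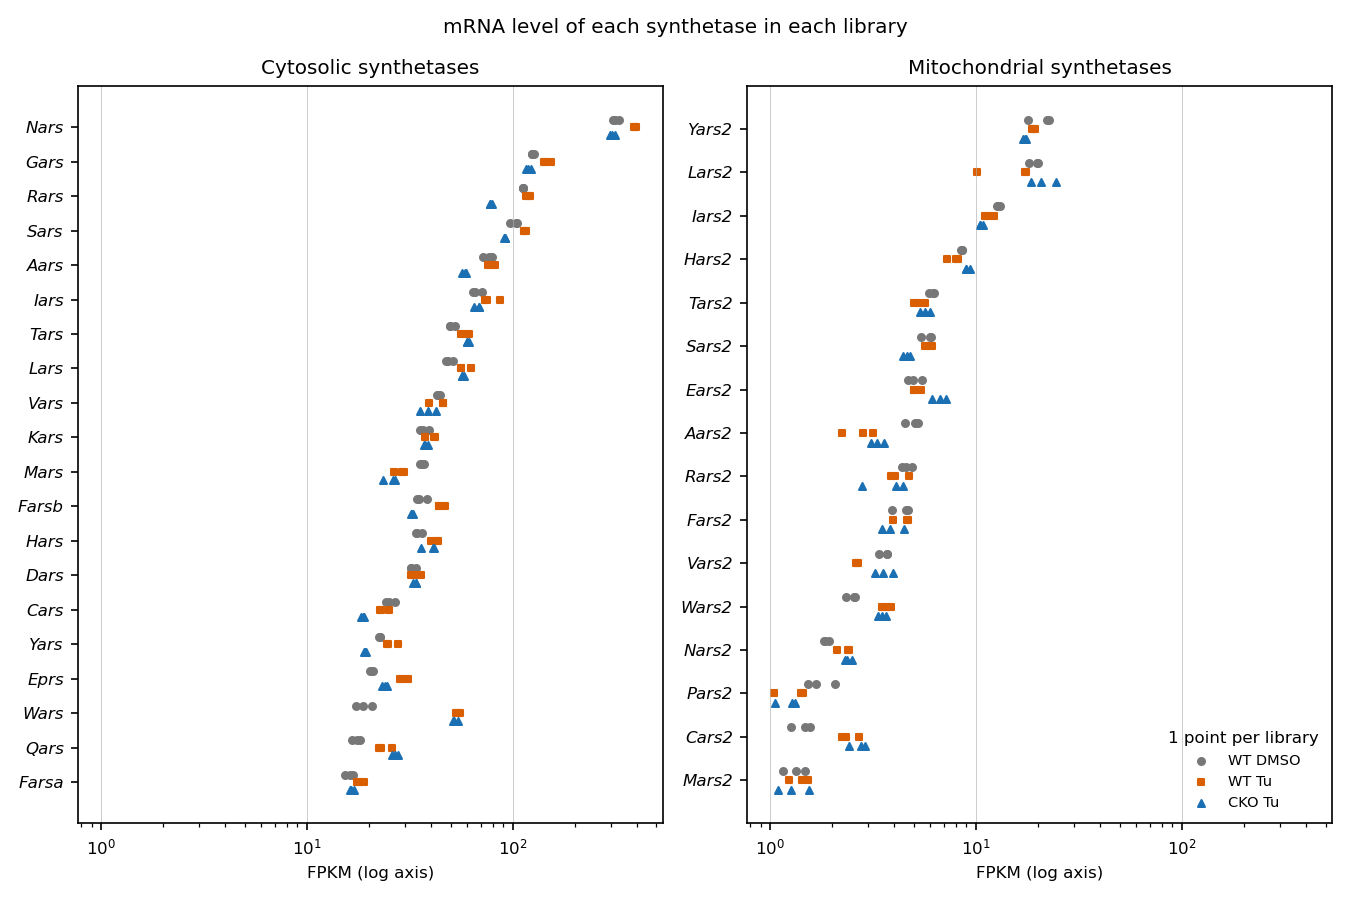
FPKM (log axis) of the 20 cytosolic and 16 mitochondrial synthetase genes, 1 point per library, with genes ordered by their WT DMSO mean. Nars stands highest, at 298 to 399 FPKM, and most mitochondrial genes lie below 10 FPKM.

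Tunicamycin in wild-type cells was followed by higher mRNA of many cytosolic synthetases and by little common movement of the mitochondrial ones. Of the 20 cytosolic genes, 12 rose, 1 fell and 7 did not pass the test in WT Tu against WT DMSO (limma, adjusted p below 0.05), where 17.7% of the 11858 genes tested rose and 15.9% fell. Of the 16 mitochondrial genes, 2 rose, 2 fell and 12 did not pass. The median log2 change was 0.19 for the cytosolic genes and -0.10 for the mitochondrial genes, against -0.0015 for all genes tested. These counts lean on the scaling. With libraries scaled to their total fragments, where the median of all genes tested moved to -0.11, 5 cytosolic genes rose, 2 fell and 7 mitochondrial genes fell. The cytosolic median was then 0.06 and the mitochondrial median -0.22. The 5 cytosolic genes that rose under total scaling and under quantile normalization were the same: Wars, Eprs, Qars, Farsb and Nars. Without WT Tu replicate 1, Farsa (0.15, adjusted p = 0.0588) and Yars (0.12, adjusted p = 0.0518) no longer passed, while Kars, the lysine enzyme, passed as higher (0.16, adjusted p = 0.0386) and Iars2 as lower (-0.18, adjusted p = 0.0226). The losses did not turn on that library alone. Farsa, Yars and Sars lost their calls in 13, 13 and 12 of 20 alternative runs, among them runs that left out a CKO Tu library.

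Wars, the tryptophanyl-tRNA synthetase, changed most. Its mRNA read 20.7, 18.7 and 17.4 FPKM in WT DMSO and 55.5, 54.3 and 53.1 FPKM in WT Tu. The groups lay far apart, and the spread within each was small beside the gap. The change was 2.86-fold on group means, or 1.47 ± 0.065 (SE) in log2(FPKM + 1), with an adjusted p of 9.47e-07. Wars lies on chromosome 12 at 108860030 to 108894174 (mm10, minus strand) and is also known as a gene that interferon gamma induces. Of 18 tested genes of an interferon response list, 0 rose and 9 fell in the same comparison. Over all genes tested 17.7% rose and 15.9% fell. Across the alternatives 0 to 1 of the list rose and 4 to 10 fell. The cause of the rise of Wars was not tested.

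Within the cytosolic set the next largest rises were those of Eprs and Qars, both enzymes of the multisynthetase complex. Eprs, which carries the glutamyl and prolyl enzymes in 1 chain, read 21.0, 20.8 and 20.3 FPKM in WT DMSO and 31.1, 29.0 and 28.4 FPKM in WT Tu, a log2 change of 0.49 ± 0.052 (adjusted p = 0.000166). Qars, the glutaminyl enzyme, read 18.1, 16.5 and 17.5 FPKM before and 26.0, 22.3 and 22.9 after tunicamycin, a log2 change of 0.43 ± 0.067 (adjusted p = 0.00155). Neither gene's groups overlapped, and in both WT Tu replicate 1 was the highest library. Without that library the change of Qars was 0.36 (adjusted p = 0.00139).

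Farsb, the beta subunit of the phenylalanine enzyme, read 38.2, 34.3 and 35.3 FPKM in WT DMSO and 47.1, 43.8 and 43.9 FPKM in WT Tu (log2 change 0.32 ± 0.056, adjusted p = 0.00282). Of its exonic bases, 9.47% lie under Sgpp2 on the opposite strand, and the strand setting of the counting was not given in the sources used here. Nars rose from 329, 308 and 313 FPKM to 399, 393 and 389 (0.31 ± 0.048, adjusted p = 0.00130), the largest gain of any member in FPKM. Both genes' groups were separate.

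Hars (histidine) read 34.5, 33.8 and 36.4 FPKM in WT DMSO and 40.3, 43.2 and 43.0 FPKM in WT Tu, a log2 change of 0.27 ± 0.068 (adjusted p = 0.0161). Its call was lost when libraries were scaled to total fragments (adjusted p = 0.162). The remaining 6 genes that rose, Lars, Gars, Tars, Yars, Farsa and Sars, did so by log2 changes of 0.16 to 0.25. All 6 lost their calls under total scaling, where their changes were 0.03 to 0.12, and under quantile normalization. Groups did not overlap for any of the 12 genes called higher, which adds nothing to their calls. The share of all genes tested with separate groups was not computed.

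Mars, the methionyl-tRNA synthetase, was the exception within the cytosolic set. It read 35.6, 36.4 and 37.0 FPKM in WT DMSO and 26.4, 29.5 and 29.1 FPKM in WT Tu, and the groups were separate. The fall was 0.781-fold on group means, a log2 change of -0.35 ± 0.067 (adjusted p = 0.00429), and it held in every alternative run. Mars lies on chromosome 10 at 127296221 to 127311786 (mm10, minus strand), where 68 of its exonic bases (1.99%) overlap Ddit3 on the opposite strand. Ddit3, the gene of the factor CHOP, stood at 46.4 ± 9.50 FPKM with vehicle and at 487 ± 26.6 FPKM with tunicamycin (log2 change 3.38, adjusted p = 9.44e-07), so the 2 overlapping genes moved in opposite directions.

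Members of the multisynthetase complex and free enzymes were counted apart, with no test of the difference between them. Of the 8 complex members 3 rose and 1 fell (median 0.16), and of the 12 free enzymes 9 rose and 0 fell (median 0.19). Over all genes tested 17.7% rose and 15.9% fell. Under total scaling and under quantile normalization 2 complex members and 3 free enzymes rose. Class I enzymes, whose catalytic domain is a Rossmann fold, counted 6 higher and 2 lower of 18, and class II enzymes 7 higher and 1 lower of 17, cytosolic and mitochondrial members together and with Eprs, which holds an enzyme of each class, left out. Of the 4 genes whose places are printed above, Gars, Tars and Yars rose, while Iars changed by 0.21 ± 0.074 (adjusted p = 0.0525). The calls of Gars, Tars and Yars were among those lost under total scaling and quantile normalization. Eprs, Qars and Farsb, which also rose, had windows in the table, but none of the 4 printed places is theirs. The windows of Wars and Nars were not in the table. A link between the core and the changes was not tested.

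**Figure D2:**
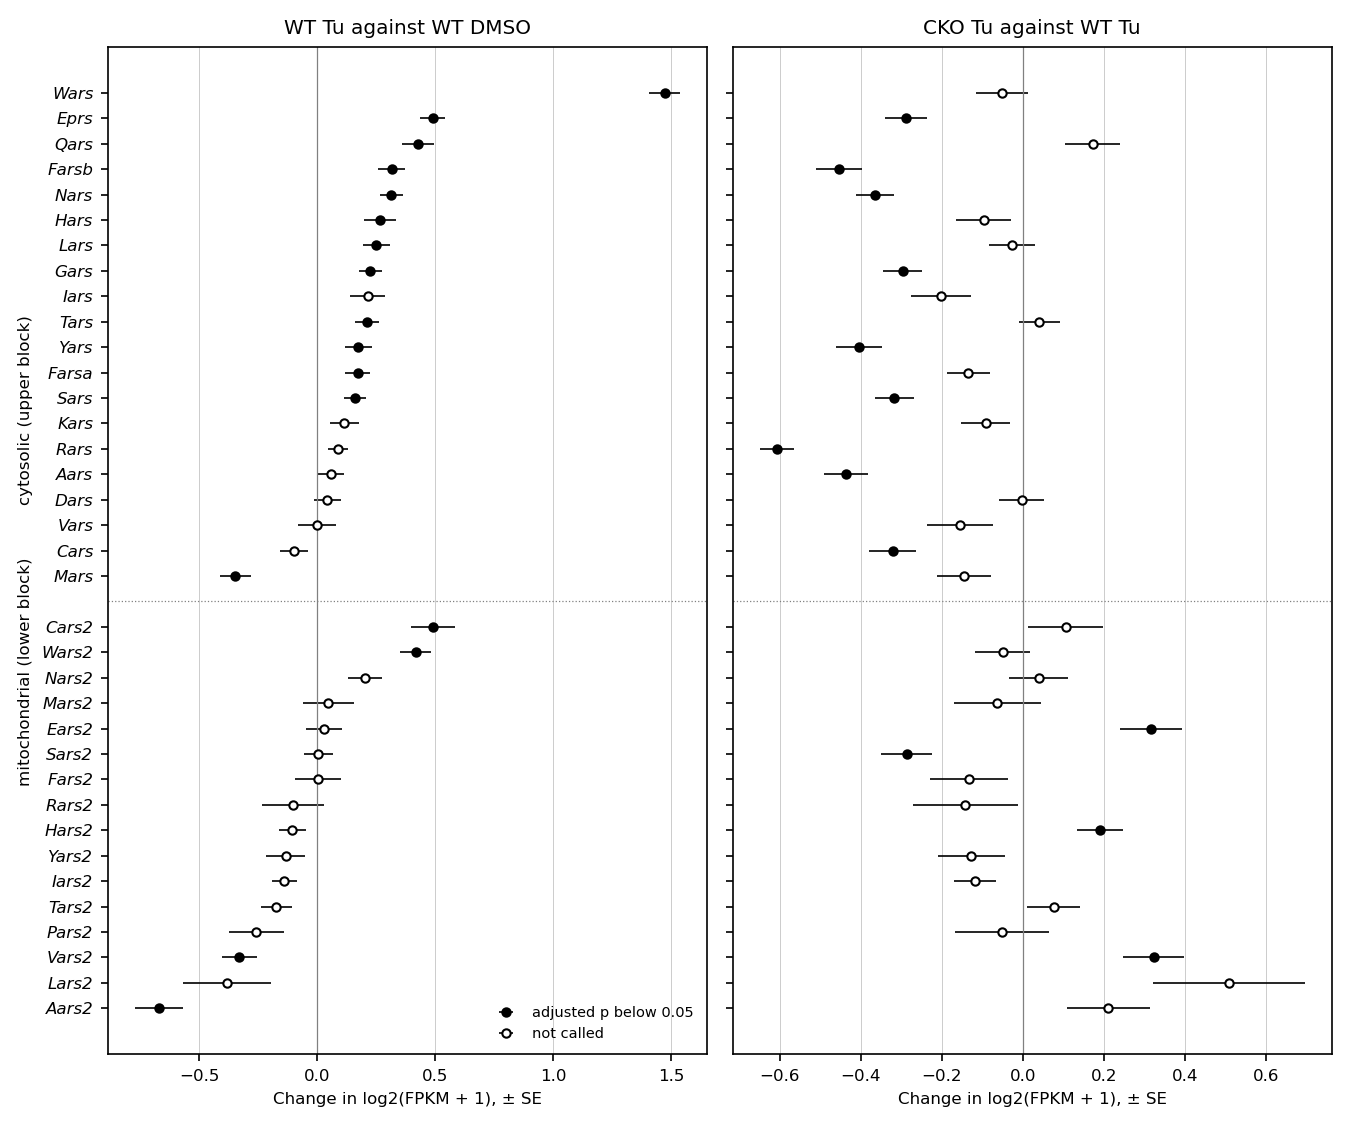
Change of each synthetase in log2(FPKM + 1) with its standard error from limma, in WT Tu against WT DMSO (left) and CKO Tu against WT Tu (right); filled points passed an adjusted p of 0.05. Genes are ordered by the left panel within each block, and Wars reaches 1.47 there but lies at -0.05 on the right.

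Of the 16 mitochondrial genes 4 passed the test in WT Tu against WT DMSO, 2 in each direction. Over all genes tested 17.7% rose and 15.9% fell, so these counts do not exceed those shares. Cars2 (cysteine) read 1.57, 1.48 and 1.27 FPKM in WT DMSO and 2.70, 2.24 and 2.34 FPKM in WT Tu, 1.69-fold on group means (log2 change 0.49 ± 0.092, adjusted p = 0.00383). Wars2 (tryptophan) rose from 2.33, 2.56 and 2.60 FPKM to 3.85, 3.66 and 3.49, 1.47-fold on group means (0.42 ± 0.067, adjusted p = 0.00174). Both are low in expression, and 5.83% of the exonic bases of Cars2 lie under Naxd on the opposite strand. The groups were separate for both genes. Among amino acids with separate cytosolic and mitochondrial genes, tryptophan was the only one for which both passed the test as higher.

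Aars2, the mitochondrial alanine enzyme, fell most of all members. It read 5.25, 4.52 and 5.04 FPKM in WT DMSO and 2.24, 2.83 and 3.17 FPKM in WT Tu, 0.556-fold on group means (log2 change -0.67 ± 0.10, adjusted p = 0.00130). The groups were separate, and without WT Tu replicate 1, its lowest library, the change was -0.57 (adjusted p = 0.00180). Vars2 (valine) read 3.69, 3.38 and 3.70 FPKM in WT DMSO and 2.63, 2.68 and 2.64 FPKM in WT Tu, a tight separation (-0.33 ± 0.075, adjusted p = 0.00940). It is among the richest in G and C of the members, at 60.3%, and across all genes the change correlated with GC content (Spearman's rho -0.344, across genes). With that trend removed the change of Vars2 was -0.10 (adjusted p = 0.455), while Aars2 kept its call. Exonic bases shared with Gm20483 on the opposite strand make up 8.52% of Vars2.

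Lars2 is named because 1 library stood apart, a choice made after its values were seen. It read 20.0, 18.2 and 19.7 FPKM in WT DMSO and 10.1, 17.4 and 17.5 FPKM in WT Tu. The low value belonged to WT Tu replicate 1, which held 1596 fragments of the gene. The log2 change was -0.38 ± 0.19 (adjusted p = 0.150), and -0.14 (adjusted p = 0.337) without that library. The other 11 mitochondrial genes that did not pass changed by log2 values between -0.26 and 0.20.

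The sum over the family shows where most of the mRNA moved. Summed cytosolic FPKM was 1241 ± 15.9 in WT DMSO and 1457 ± 24.2 in WT Tu (SD, n = 3), ranging from 1226 to 1258 and from 1435 to 1483. The groups were separate, also without Wars (1222 ± 14.8 and 1403 ± 23.0). Summed mitochondrial FPKM was 105 ± 4.18 and 94.8 ± 4.11; without Lars2 it was 85.7 ± 3.17 and 79.8 ± 0.580. Dividing the cytosolic by the mitochondrial sum within a library removes its scaling. That ratio was 11.6 to 12.2 in WT DMSO and 14.7 to 16.5 after tunicamycin in WT cells, with WT Tu replicate 1 highest, and 11.6 to 12.2 in CKO Tu. The WT Tu libraries thus lay above both other groups, which overlapped with Lars2 counted. The ratio without Lars2 was not computed. Without that gene the mitochondrial sums ran from 82.2 to 88.2 in WT DMSO and from 77.9 to 81.6 in CKO Tu, which did not overlap. No test was run on these sums.

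**Figure D3:**
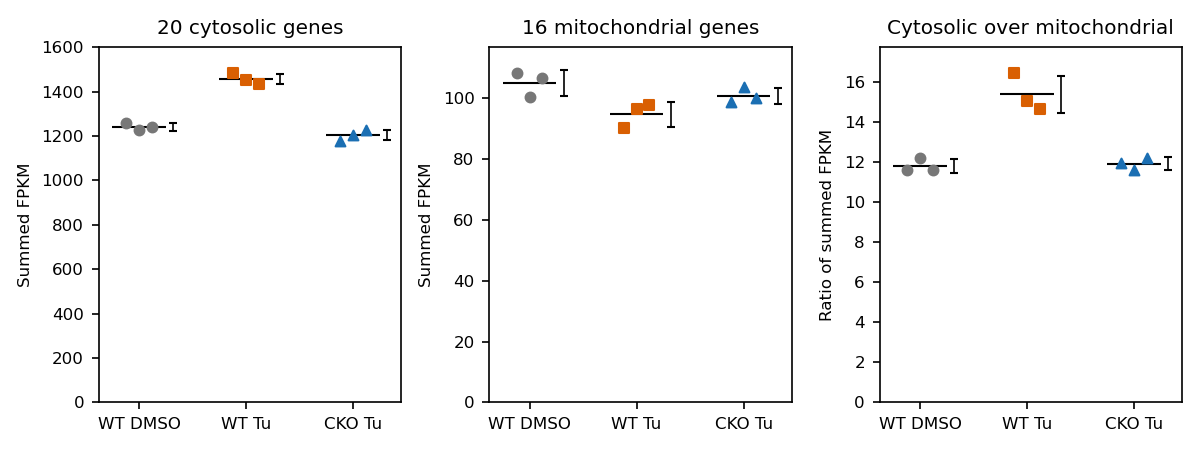
Summed FPKM of the 20 cytosolic genes (left) and the 16 mitochondrial genes (middle), and the ratio of the sums (right), per library, with the group mean as a line and the SD as a bar to its right. WT Tu libraries have ratios of 14.7 to 16.5, above the 11.6 to 12.2 of both other groups.

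The CKO Tu libraries held less mRNA of many cytosolic synthetases than the WT Tu libraries. In CKO Tu against WT Tu, 0 of 20 cytosolic genes rose, 9 fell and 11 did not pass, where 18.7% of the genes tested rose and 19.6% fell. The 16 mitochondrial genes counted 3 higher, 1 lower and 12 that did not pass. Median log2 changes were -0.18 (cytosolic), -0.0054 (mitochondrial) and -0.0021 (all genes tested). All 9 cytosolic calls were made again under total scaling, quantile normalization and every other alternative. This comparison shares the WT Tu libraries with the one above, so a gene that is high in those 3 libraries tends to rise in one and fall in the other.

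Rars, the arginyl-tRNA synthetase of the multisynthetase complex, fell most. It read 120, 122 and 116 FPKM in WT Tu and 77.5, 77.4 and 79.1 FPKM in CKO Tu, 0.654-fold on group means (log2 change -0.61 ± 0.043, adjusted p = 1.81e-05). Its WT DMSO libraries stood at 112, 113 and 112 FPKM, so CKO Tu lay below both WT groups and tunicamycin alone had not moved the gene past the test (0.09 ± 0.043, adjusted p = 0.142). Rars lies on chromosome 11 at 35808381 to 35834506 (mm10, minus strand).

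Aars, Yars and Cars also fell below the vehicle level. Aars (alanine) read 75.8, 82.0 and 79.5 FPKM in WT Tu and 58.4, 59.2 and 56.8 FPKM in CKO Tu (-0.44 ± 0.055, adjusted p = 0.000418), against 71.6 to 79.1 in WT DMSO. Exonic bases shared with Exosc6 on the same strand make up 14.3% of Aars. Yars (tyrosine) went from 27.9, 24.5 and 24.7 to 19.4, 19.0 and 19.1 FPKM (-0.40 ± 0.057, adjusted p = 0.000776), against 22.4 to 22.8 in WT DMSO. Cars (cysteine) read 23.0, 25.1 and 22.7 FPKM in WT Tu and 18.9, 18.4 and 18.8 FPKM in CKO Tu (-0.32 ± 0.059, adjusted p = 0.00292), against 24.2 to 26.8 in WT DMSO. For each of these genes the CKO Tu libraries lay below all 6 WT libraries.

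Farsb and Nars also fell, but did not pass the test against WT DMSO. Farsb read 47.1, 43.8 and 43.9 FPKM in WT Tu and 31.9, 32.6 and 33.0 FPKM in CKO Tu (-0.45 ± 0.056, adjusted p = 0.000383), and CKO Tu against WT DMSO gave -0.14 ± 0.056 (adjusted p = 0.0682), although those 2 groups did not overlap. Nars read 399, 393 and 389 FPKM in WT Tu and 298, 304 and 315 FPKM in CKO Tu (-0.36 ± 0.048, adjusted p = 0.000533), with -0.05 ± 0.048 against WT DMSO (adjusted p = 0.412). Sars, Gars and Eprs completed the 9, with log2 changes of -0.32, -0.30 and -0.29. Eprs remained above WT DMSO, at 23.2, 23.9 and 24.6 FPKM (0.20 ± 0.052, adjusted p = 0.0113).

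The gene that tunicamycin raised most did not follow. Wars read 51.7, 51.3 and 54.1 FPKM in CKO Tu, overlapping the 53.1 to 55.5 of WT Tu, with a log2 change of -0.05 ± 0.065 (adjusted p = 0.569). Qars read 25.9, 26.8 and 27.7 FPKM in CKO Tu against 26.0, 22.3 and 22.9 in WT Tu (0.17 ± 0.067, adjusted p = 0.0746). Without WT Tu replicate 1 its change was 0.24 (adjusted p = 0.00851), and Qars also passed as higher under total scaling with all libraries kept. On which side of the threshold Qars fell thus turned on that replicate and on the scaling. Mars (-0.19, adjusted p = 0.0356) and Vars (-0.23, adjusted p = 0.0288) passed as lower when WT Tu replicate 1 was left out. Tars (threonine) and Lars (leucine) changed by 0.04 ± 0.051 and -0.03 ± 0.058 (adjusted p of 0.572 and 0.747). Of the complex members 2 of 8 fell, Rars and Eprs, and of the free enzymes 7 of 12, where 19.6% of all genes tested fell. The difference between complex members and free enzymes was not tested.

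**Figure D4:**
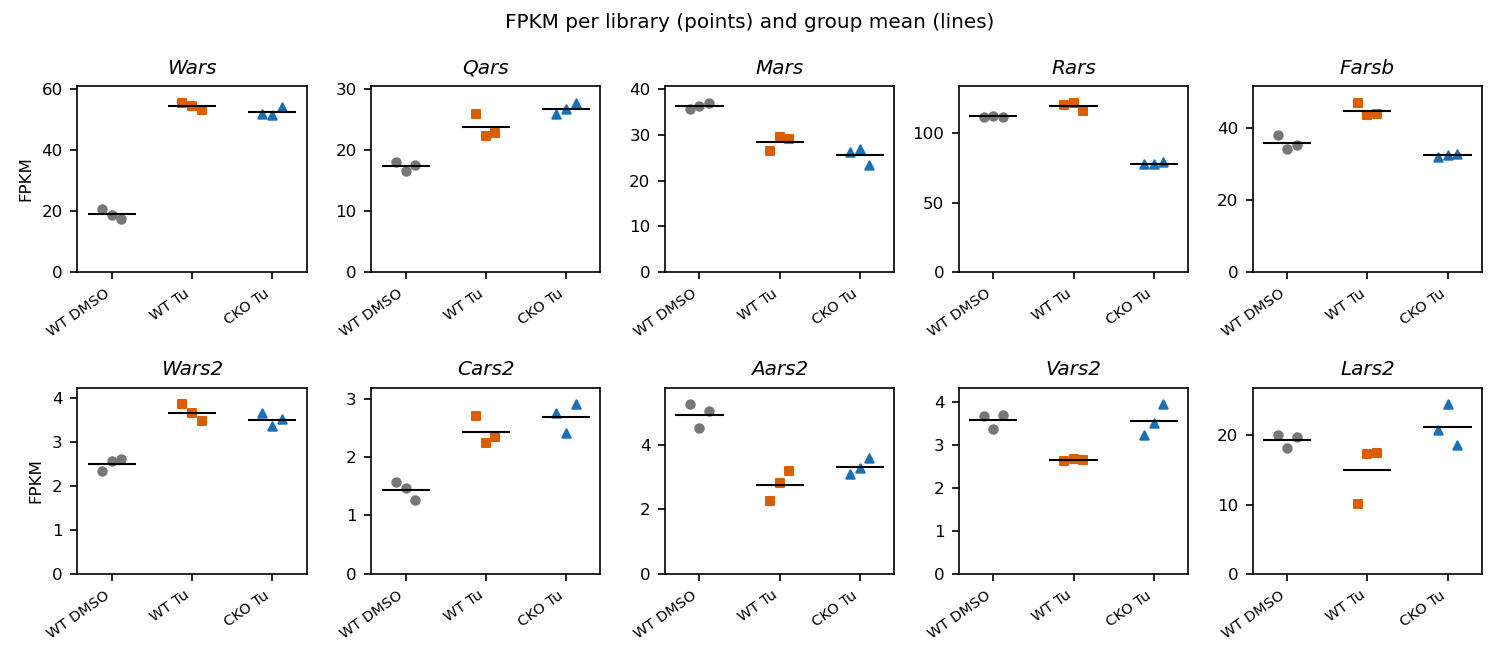
FPKM of 10 synthetase genes in each library, with lines at the group means; the upper row shows cytosolic and the lower row mitochondrial genes. Wars stays above 50 FPKM in both tunicamycin groups, while Rars lies below 80 FPKM in the CKO Tu libraries alone.

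Of the mitochondrial genes Vars2, Ears2 and Hars2 were higher in CKO Tu than in WT Tu, and Sars2 was lower. Vars2 returned from 2.63, 2.68 and 2.64 FPKM to 3.24, 3.52 and 3.95 (0.32 ± 0.075, adjusted p = 0.00926), which overlaps its WT DMSO range of 3.38 to 3.70; with the GC trend removed the change was 0.19 (adjusted p = 0.127). Ears2 (glutamate) read 4.99, 5.01 and 5.43 FPKM in WT Tu and 6.70, 7.15 and 6.11 FPKM in CKO Tu (0.32 ± 0.076, adjusted p = 0.0108). Its CKO Tu libraries lay above all 6 WT libraries.

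Hars2 (histidine) read 8.05, 7.27 and 8.18 FPKM in WT Tu and 8.91, 9.35 and 8.95 FPKM in CKO Tu, the smallest called difference (0.19 ± 0.057, adjusted p = 0.0283). It shares 195 exonic bases with its neighbour Hars on the opposite strand, and its call was lost in 7 of 20 alternatives. Sars2 (serine) fell from 5.77, 5.66 and 6.09 FPKM to 4.41, 4.77 and 4.63 (-0.29 ± 0.062, adjusted p = 0.00677). Among amino acids with separate cytosolic and mitochondrial genes, serine was the only one for which both passed the test as lower. Lars2 read 20.8, 24.5 and 18.6 FPKM in CKO Tu, with a log2 change of 0.51 ± 0.19 against WT Tu (adjusted p = 0.0607) and of 0.26 (adjusted p = 0.0713) without WT Tu replicate 1.

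Set side by side with vehicle-treated wild-type cells, CKO Tu cells held a mixed profile. In that comparison, which shares libraries with both others, 25.3% of the genes tested rose and 24.2% fell. Of the cytosolic genes 5 were higher (Wars, Qars, Tars, Lars and Eprs) and 6 lower (Rars, Mars, Cars, Aars, Yars and Sars), and 4 of the 5 were still called higher under total scaling. Of the mitochondrial genes 4 were higher (Cars2, Wars2, Ears2 and Nars2) and 4 lower (Aars2, Sars2, Yars2 and Iars2), again near the shares over all genes. Wars stood 2.76-fold and Qars 1.54-fold above WT DMSO on group means, and Rars at 0.696-fold and Mars at 0.703-fold. Of the exonic bases of Iars2, 22.9% lie under Rab3gap2 on the opposite strand.

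The cytosolic and mitochondrial enzymes for 1 amino acid were also compared within each library, as the log2 ratio of their values in FPKM + 1. There were 17 such pairs, 13 of them with 1 gene on each side. The ratio did not overlap between WT Tu and WT DMSO in 14 pairs, higher in 12 and lower in 2. The share of non-overlapping ratios among pairs of other genes was not computed, so these counts have no background beside them. Eprs and Fars2 each enter 2 pairs, so the pairs are not independent. With 3 libraries against 3 the exact two-sided permutation test cannot give a p below 0.1, and adjusted over the 17 pairs the smallest was 0.121, so no pair passed. The added 1 shrinks the ratios of low genes and leaves some of a library's scaling in them, so the ratios were also taken of FPKM alone, in which the scaling cancels, a choice made after the values were seen. Then 13 pairs did not overlap, all among the 14, with 11 higher and 2 lower (smallest adjusted exact permutation p = 0.131). In FPKM alone the largest shifts were those of Wars to Wars2 (0.97), Eprs to Pars2 (0.94) and Aars to Aars2 (0.92), which were 1.06, 0.75 and 0.73 in FPKM + 1. Cars to Cars2 (-0.86) and Mars to Mars2 (-0.44) went the other way, at -0.59 and -0.39 in FPKM + 1. The shift of Lars to Lars2 in FPKM + 1 was 0.63, and 0.34 without WT Tu replicate 1.

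Between CKO Tu and WT Tu 10 of the 17 ratios in FPKM + 1 did not overlap, and all 10 were lower in CKO Tu; the smallest adjusted exact p was 0.17. In FPKM alone 9 of the 10 did not overlap. Aars to Aars2 fell by 0.65 in FPKM + 1 and by 0.73 in FPKM alone, and Eprs to Ears2 by 0.61 and 0.67, each with a cytosolic gene that was lower and a mitochondrial gene with a change above 0. Lars to Lars2 differed by -0.53 in FPKM + 1, and by -0.24 without WT Tu replicate 1. The ratios of Wars to Wars2 and of Sars to Sars2 overlapped between the groups. Both comparisons share the WT Tu libraries, and here too no share over pairs of other genes was computed.

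**Figure D5:**
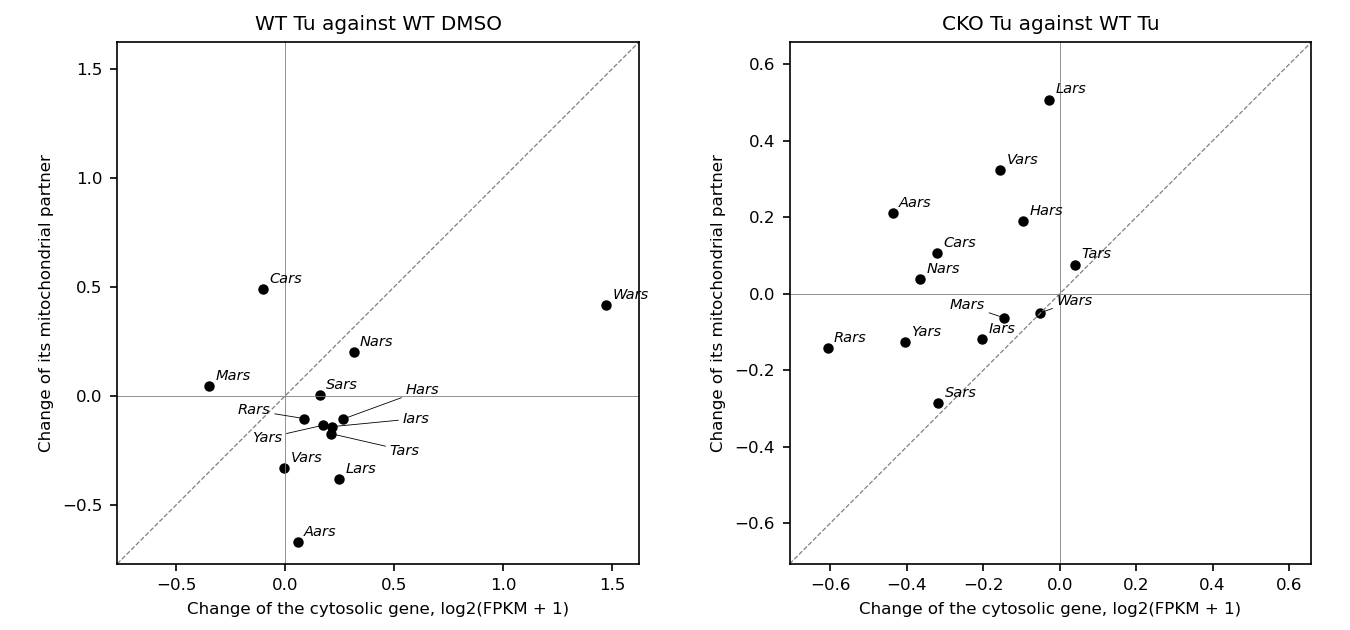
Change of the cytosolic gene (x axis) against that of its mitochondrial partner (y axis), both in log2(FPKM + 1), for the 13 amino acids with 1 gene on each side; points are labelled by the cytosolic gene and the dashed line marks equal change. Most points lie below the line in WT Tu against WT DMSO (left), with Cars and Mars above it, and above the line in CKO Tu against WT Tu (right).

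The partners of the synthetases were read from short lists. Of the 3 scaffolds of the multisynthetase complex, Aimp1 rose under tunicamycin (0.20 ± 0.059, adjusted p = 0.0211) and fell in CKO Tu against WT Tu (-0.22, adjusted p = 0.0115), and Eef1e1 fell in the latter by 0.56 (adjusted p = 0.000485). Aimp2 did not pass in either. Of 6 tested editing and related factors only Dtd2, which removes wrongly charged amino acids from tRNA, passed, with -0.45 in WT Tu against WT DMSO and -0.55 in CKO Tu against WT Tu. Of the 4 genes of the mitochondrial glutaminyl-tRNA amidotransferase and the formyltransferase, Qrsl1 alone passed (0.27, then -0.49).

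Of 7 genes of tRNA export and cytosolic elongation, 3 rose and 1 fell with tunicamycin, where 17.7% of all genes tested rose and 15.9% fell. Eef2k, the kinase that slows elongation, changed by 0.84 ± 0.12, Xpot, the tRNA exporter, by 0.37 ± 0.091 and Eef1g, a subunit of the exchange factor, by -0.34 ± 0.11. In CKO Tu against WT Tu 0 rose and 2 fell, where 18.7% of all genes tested rose and 19.6% fell. The ATF4 and amino acid response list, 26 genes chosen with earlier results known, counted 9 higher and 4 lower with tunicamycin. In CKO Tu against WT Tu 3 of its genes rose and 14 fell. Its largest changes were those of Ddit3 (3.38) and Atf3 (1.75) with tunicamycin, and of Ddit4, which restrains mTOR, in CKO Tu against WT Tu (1.28). Of the list's promoter windows 30.8% held the amino acid response core.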

How the data were processed

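RNA was sequenced from primary mouse hepatocytes in 9 libraries, 3 in each of 3 groups. The deposited FPKM values were computed by the authors; the submitters' processing notes name HISAT2 2.2.1, featureCounts 1.5.0-p3 and the build mm10. Annotation release, strand setting and library scaling are not given in the sources used here. Multiplied by gene length, the values fell on whole multiples of a single step in each library (tolerance 0.001 fragments, 100% of values). This gave the fragments per gene and library sizes 0.948 to 1.07 times the fragment totals. That factor differed by group without overlap, at 1.06 to 1.07 in WT DMSO, 0.948 to 0.984 in WT Tu and 1.005 to 1.010 in CKO Tu.

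Genes that reached an FPKM of 1 in 3 or more libraries, 11858 in all, were fitted as log2(FPKM + 1) with limma 3.58.1 in R 4.3.3, all 9 libraries together, with group means and a trend of the spread with intensity; all 36 synthetases passed that filter. The test was run on simulated data first. P-values are two-sided and adjusted by the Benjamini-Hochberg method over all genes tested, and called below 0.05. Adding 1 before the logarithm shrinks the log2 changes of low genes. Errors are SE from limma beside log2 changes and SD of 3 libraries beside FPKM. The labels do not say that replicates came from separate animals, so p-values reflect only how much these libraries varied.

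Ratios within amino acid pairs were tested by exact permutation (SciPy 1.17.1). Coordinates are those of the deposited table (mm10), exon overlaps come from GENCODE M21, and promoter windows come from RefSeq (GRCm38.p6). Same-numbered libraries were not paired. The members, gene lists, tests and rules for naming genes were chosen with earlier results of these data known. Values per library are given for the 6 members of each set with the largest called change in each direction, and up to 3 called genes with the largest change are named from each other list. Alternatives were other pseudocounts, filters, scalings, spread models, a replicate block, removal of the GC trend, voom on recovered fragments, and leaving out each library. The planned comparison of protein sequences was not run. Some promoter sequence is not reported here.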

Additional observations from a re-analysis of the deposited data

How the results depend on the processing

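No called synthetase reversed under any of the 20 alternatives. Calls were the same in every alternative that tested the gene (19 for genes that an FPKM minimum of 5 left out, 20 for the rest) for 9 of 17 members in WT Tu against WT DMSO, 11 of 13 in CKO Tu against WT Tu and 14 of 19 in CKO Tu against WT DMSO. Leaving out 1 library, the first comparison gave 8 to 12 cytosolic genes higher, with the fewest without WT DMSO replicate 2, and the second 9 to 11 lower and 0 to 1 higher, the latter Qars without WT Tu replicate 1. Leaving out WT Tu replicate 1 moved the changes and calls given above.

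Cytosolic genes called higher with tunicamycin numbered 5 in place of 12 under quantile normalization and under scaling to total fragments. Total scaling also gave 2 cytosolic and 7 mitochondrial genes lower, and 1433 higher and 3121 lower of all genes. Higher genes were 52.7% of all calls as deposited, 31.5% under total scaling and 46.6% under quantile normalization. In CKO Tu against WT Tu, total scaling gave 1 cytosolic gene higher, Qars, and upper-quartile scaling 2 mitochondrial genes lower. An FPKM minimum of 5, which kept 7 mitochondrial genes, left 0 higher and 0 lower with tunicamycin and 1 higher in CKO Tu against WT DMSO. That minimum removed Cars2, Wars2, Aars2 and Vars2, the mitochondrial genes called with tunicamycin, and also Nars2. Their calls were therefore not tested again by it. Summed cytosolic FPKM was 1317 in WT DMSO and 1411 in WT Tu under total scaling, and 1482 in WT Tu under upper-quartile scaling; the mitochondrial sum in WT DMSO was 112 under total scaling.

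Deviations from the group means correlated from -0.097 to 0.021 between same-numbered libraries and from -0.061 to 0.10 between differently numbered ones. These values cannot settle whether replicate numbers pair samples, and the main fit did not pair them. A fit with the replicate block gave 9 cytosolic genes higher and 1 lower and 2 mitochondrial genes in each direction in WT Tu against WT DMSO. In CKO Tu against WT Tu the block gave 0 and 9 cytosolic and 2 and 1 mitochondrial genes, and in CKO Tu against WT DMSO 5 and 6 cytosolic and 3 and 4 mitochondrial genes.

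Members near 0 changed sign in some alternatives, and the cause was not tested. In WT Tu against WT DMSO, quantile normalization gave -0.027 for Aars, -0.037 for Dars and -0.012 for Rars. Total scaling gave -0.071 for Aars, -0.086 for Dars, -0.014 for Kars, -0.042 for Rars, -0.082 for Ears2, -0.10 for Fars2, -0.030 for Mars2 and -0.11 for Sars2. Removing the GC trend gave -0.12 for Dars, -0.067 for Rars, 0.21 for Vars (adjusted p = 0.0352) and -0.17 for Mars2, and upper-quartile scaling 0.020 for Vars. In CKO Tu against WT Tu, quantile normalization gave 0.035 for Dars, 0.020 for Lars and -0.011 for Nars2, and total scaling 0.052 for Dars, 0.029 for Lars and 0.0047 for Wars. Removing the GC trend gave 0.035 for Dars, and upper-quartile scaling -0.0098 for Tars. With 1 library left out, the first comparison ranged from -0.0013 to 0.077 for Dars, -0.040 to 0.071 for Vars, -0.014 to 0.082 for Ears2, -0.059 to 0.069 for Fars2, -0.0050 to 0.094 for Mars2 and -0.037 to 0.027 for Sars2. The second ranged from -0.038 to 0.041 for Dars, -0.054 to 0.024 for Lars, -0.14 to 0.0038 for Mars2, -0.0027 to 0.063 for Nars2, -0.13 to 0.00097 for Pars2 and -0.24 to 0.013 for Rars2.

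A library held 46 to 4212 fragments of a mitochondrial gene and 948 to 16294 of a cytosolic gene, so counting error is wider for the lowest mitochondrial genes. The highest SE, 0.19, was that of Lars2, in which WT Tu replicate 1 stood apart.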

Other observations

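Other genes of tRNA supply and mitochondrial translation were counted in lists chosen with earlier results known. Over all genes tested 17.7% rose and 15.9% fell in WT Tu against WT DMSO, and 18.7% rose and 19.6% fell in CKO Tu against WT Tu. Of 9 mitochondrial translation factors, 1 rose and 1 fell in WT Tu against WT DMSO, and 0 rose and 7 fell in CKO Tu against WT Tu (limma, adjusted p below 0.05). The largest falls were those of Tsfm (-0.52 ± 0.081), which reloads the mitochondrial elongation factor, of Gfm1 (-0.48 ± 0.059), an elongation factor, and of Mtrf1l (-0.39 ± 0.091), a release factor. Across the alternatives 4 to 8 of the 9 fell. The mitochondrial synthetases themselves counted 1 lower and 3 higher of 16 in that comparison.

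Of 15 genes of mitochondrial tRNA modification, 2 rose and 1 fell with tunicamycin, and 1 rose and 6 fell in CKO Tu against WT Tu. Yrdc, which makes the precursor of a threonine-derived tRNA modification, changed by 0.65 ± 0.054 and then by -0.36. Mto1 changed by 0.43 ± 0.086 and then by -0.33, and Cdk5rap1 by -0.15 (adjusted p = 0.358) and then by -0.54. Of 18 genes of tRNA ligation, splicing and end processing, 1 rose and 3 fell with tunicamycin, and 2 rose and 7 fell in CKO Tu against WT Tu. Tsen34, a subunit of the tRNA splicing endonuclease, changed by -0.61 and then by 0.33, while Fam98b and Rpp30 fell in the latter by 0.58 and 0.56.

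Of 20 genes of RNA polymerase III, which transcribes tRNA genes, 1 rose and 3 fell with tunicamycin, and 3 rose and 5 fell in CKO Tu against WT Tu, near the shares over all genes in the latter. Maf1, its repressor, read 9.42 ± 2.19 FPKM in WT DMSO, 10.2 ± 1.19 in WT Tu and 24.9 ± 0.355 in CKO Tu (SD, n = 3), a log2 change of 1.22 ± 0.14 in CKO Tu against WT Tu (adjusted p = 0.000237). The subunit genes Polr3d and Polr3c fell there by 0.60 and 0.51. Of 18 genes of the interferon response list, 3 rose and 6 fell in CKO Tu against WT Tu, with Gbp2 at -2.42, Ifit3 at -1.05 and Iigp1 at 1.04. These 2 comparisons share the WT Tu libraries.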
